A study of Mus musculus with 4 samples.

Results

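Cytochrome P450 genes were described in 4 mouse liver tumours. Members were the genes whose symbol is Cyp followed by a number, a letter and a number, leaving out the bile acid genes Cyp7a1, Cyp7b1, Cyp8b1 and Cyp27a1, which gave 90 of 24063 gene symbols. All 4 tumours carried the same label, overexpression of MYC, a growth-driving transcription factor, together with PMEPA1, a membrane protein induced by TGF-beta, in C57BL/6 mice (C57BL6/J in the titles). The genes were brought in by hydrodynamic tail vein injection, which carries DNA mainly into hepatocytes, the animals were untreated, and the design text calls the tumours hepatocellular carcinomas. A passage label of 8 to 10 passages is attached to all 4 although the source is given as tumour. The sources used here do not give age, sex or the species of the delivered sequences. The numbers 1, 5, 9 and 10 are those of the tumours' titles, and all sets of 4 values below stand in that order. With 1 group and no control tissue, the comparison was between tumours. Nothing in the labels says that the tumours came from separate animals, so the p-values measure only the spread between these samples, which may be technical.

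P450 enzymes are heme proteins that insert an oxygen atom into fats, steroids and foreign compounds. Those of the endoplasmic reticulum, which include most liver members, receive electrons from P450 oxidoreductase (Por), and mitochondrial members receive them from ferredoxin. In the normal liver they mark the mature hepatocyte and are zoned, with most drug-metabolizing members highest around the central vein. Foreign compounds induce them through receptors: AHR for family 1, CAR for subfamily 2b, PXR for subfamily 3a and PPARA for subfamily 4a. Several mouse members also differ between the sexes, under the control of growth hormone.

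Gene totals, with each gene read from its transcript row of highest mean count, were 41547956 to 51939610 counts per tumour. A level is given as CPM, the count per 1000000 counts after TMM scaling, and levels of different genes are compared only as CPM per kilobase of transcript. Genes that mark the hepatocyte were present in all 4 tumours: Alb, which encodes albumin, stood at 4732, 4520, 5594 and 13400 CPM, and 10 of 10 listed hepatocyte markers were expressed. The summed CPM of the lists of other cells varied: 9.23, 11.7, 510.3 and 19.9 for neutrophils, 78.3, 112, 688 and 85.8 for red cell precursors, 234, 175, 830.0 and 319 for macrophages and 51.2, 79.4, 15.5 and 13.9 for bile duct cells. In whole tumour RNA, fewer cells of a type and less RNA per cell cannot be told apart.

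As a family, the P450 genes were most abundant in tumour 10. Summed over the 90 members, the level was 1290, 1099, 1204 and 4040 CPM, a 3.68-fold range between tumours 10 and 5. Tumours 1, 5 and 9 lay close to each other and tumour 10 stood apart. Tumour 10 also held the highest summed CPM of the 10 hepatocyte markers, at 14680, 16080, 20880 and 35290. Of these 10 markers 8 were highest in tumour 10, while Apoa1 was highest in tumour 9. Trf was highest in tumour 5 and lowest in tumour 10. The part of hepatocyte content in the P450 sum was not tested. Members whose 4 levels averaged 1 CPM or more, here called expressed, numbered 49. Another 31 had counts below that mean and 10 had no count in any tumour.

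The make-up differed between the tumours. Per kilobase, the leading member of tumour 1 was the ethanol-oxidizing enzyme Cyp2e1, with 118 CPM per kilobase or 17.4% of the P450 total. Cyp2d26 led in tumour 5 with 147 CPM per kilobase (25.3%) and in tumour 9 with 276 CPM per kilobase (42.2%). In tumour 10 the leading member was Cyp3a11, a main drug-metabolizing P450 of mouse liver, with 513 CPM per kilobase (25.7%). By subfamily, 3a made up 19.7%, 16.2%, 18.4% and 45.1% of the P450 level per kilobase, 2d made up 19.4%, 32.2%, 52.9% and 17.5%, and 2c made up 20.4%, 31.3%, 16.7% and 7.42%. No subfamily led tumour 1 clearly, tumour 9 was mostly 2d, and tumour 10 was led by 3a.

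**Figure D1:**
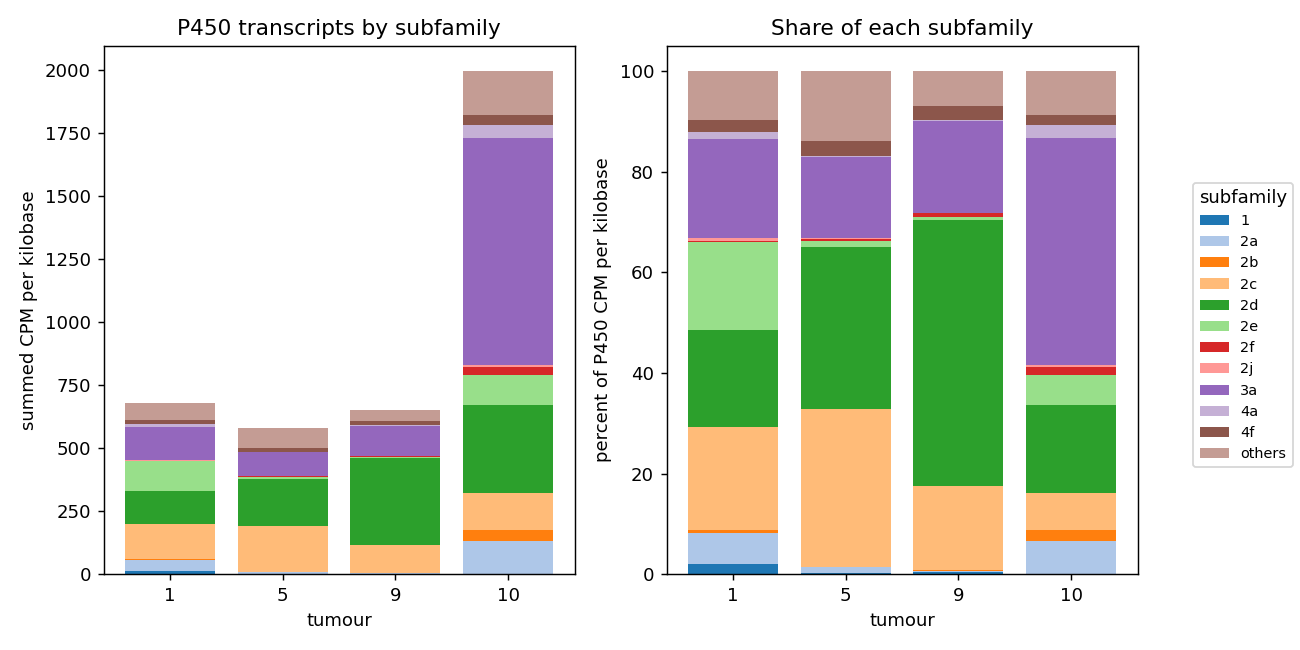
Share of the summed P450 level (CPM per kilobase, percent) held by each subfamily in tumours 1, 5, 9 and 10, as stacked bars. The 2d subfamily fills 52.9% of the bar of tumour 9 and the 3a subfamily 45.1% of the bar of tumour 10.

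The expressed members spread widely. The Poisson test placed 49 of 49 beyond counting noise, against 98.7% of 13129 expressed genes, so this share is the background itself. The highest tumour was at least 4-fold above the lowest for 41 of 49 (83.7%), against 19.6% of all expressed genes. It was at least 8-fold above the lowest for 29 of 49, against 9.79% of all expressed genes. The median SD of log2 CPM over the 4 tumours was 1.75 for the expressed members and 0.45 for all expressed genes. For 13 of the 49, the other 3 tumours had a mean under 1 CPM, so these passed through 1 tumour and had to differ. Among members at or above 1 CPM in every tumour, 17 of 25 spanned 4-fold, beside 1503 of 11712 genes filtered the same way. The steadiest were Cyp20a1, an enzyme with no known substrate, and Cyp2c68.

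**Figure D2:**
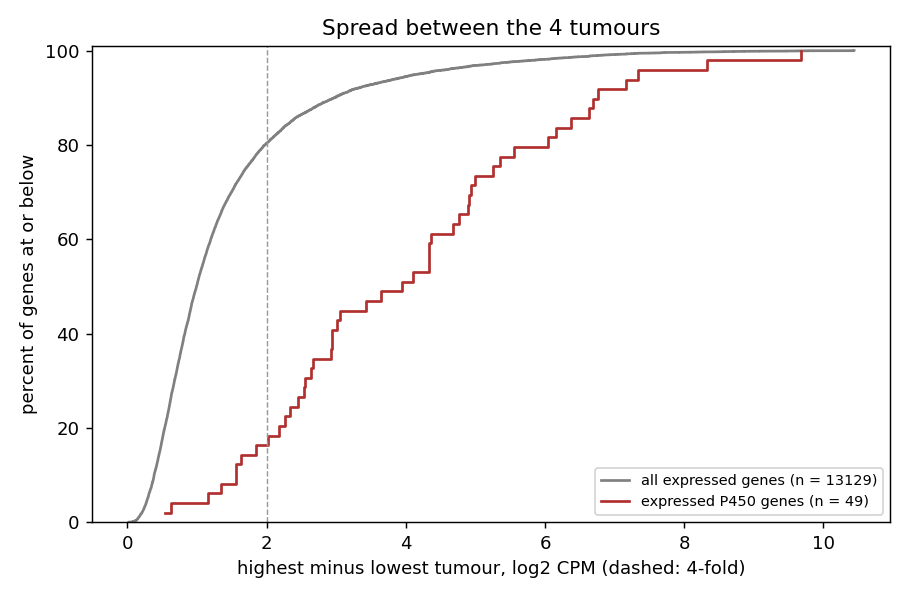
Cumulative share of genes (percent) against the difference between the highest and the lowest tumour in log2 CPM, for 49 expressed P450 genes and 13129 expressed genes; the dashed line marks 4-fold. The P450 curve lies to the right of the other, with 83.7% of its genes at or beyond 4-fold against 19.6%.

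Tumour 10 held the highest level of 22 of the 49 (44.9%, against 35.8% of all expressed genes) and tumour 1 that of 14 (28.6%, against 21.4%). Of these, 9 of the 14 in tumour 1 and 2 of the 22 in tumour 10 passed the filter through that tumour alone. With at least 1 CPM required in every tumour, tumour 1 was highest for 3 of 25 members, beside 21.4% of genes filtered the same way, and tumour 10 for 12, beside 37.2%, so the excess in tumour 1 was not seen there. Tumours 5 and 9 held the highest of 6 and 7 (background 21.2% and 21.6%). The lowest level fell in tumour 9 for 19 members (background 25.5%), in tumour 1 for 12 (21.8%), in tumour 5 for 9 (20.3%) and in tumour 10 for 9 (32.4%). Members at least 4-fold above each of the other tumours numbered 8 in tumour 1 (background 0.312%), 2 in tumour 5 (0.35%), 1 in tumour 9 (1.3%) and 11 in tumour 10 (2.54%). Of these, 7 of the 8 in tumour 1 and 2 of the 11 in tumour 10 had passed the expression filter through that tumour alone, so nothing is read from the count of tumour 1. The median deviation of log2 CPM from the 4-tumour mean was 0.35, -0.49, -0.74 and 1.02 over the expressed members and -0.01, 0, -0.04 and 0.02 over all genes. Over the expressed members, the median therefore lay above 0 in tumours 1 and 10 and below 0 in tumours 5 and 9. Members that passed the filter through tumour 1 alone are part of this set, so nothing is read from the median of tumour 1. For 15 of the 49 members, tumours 1 and 10 were both above tumours 5 and 9 (10.9% of all expressed genes). In contrast, 6 members were highest in tumour 1 and lowest in tumour 10 (background 12.8%). The reverse held for 7, highest in tumour 10 and lowest in tumour 1 (13.8%). The counts of 6 and 7 lay near their backgrounds, so nothing is read from them.

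In edgeR's two-sided quasi-likelihood test of each tumour against the other 3, with Benjamini-Hochberg adjustment over 13129 genes and the 4 tumours, 0 members passed 0.05 in any tumour, and 0% of all genes did. The smallest adjusted p among members was 0.226, 0.279, 0.283 and 0.0906. At an unadjusted p under 0.05, the same test held 8 members higher in tumour 1 (background 0.427%), 1 higher in tumour 5 (0.617%), 2 higher (3.76%) and 4 lower (1.9%) in tumour 9, and 14 higher in tumour 10 (13.9%). The filter had been passed through tumour 1 alone by 7 of those 8, through tumour 9 alone by 1 of those 2 and through tumour 10 alone by 2 of those 14. None was lower in tumour 1, 5 or 10 at that level (backgrounds 0.289%, 0.305% and 8.23%). Adjusted within tumour 10 alone, 2 members passed, Cyp2d10 (adjusted p 0.0233) and Cyp4v3 (adjusted p 0.0265), against 1.3% of all genes higher. DESeq2 called 4, 3, 7 and 11 members (of 29, 46, 319 and 1359 genes called, or 0.221%, 0.350%, 2.43% and 10.4% of all expressed genes) and limma-voom 0, and without tumour 9 edgeR called 4 in tumour 10, beside 410 of 12867 genes (3.19%). Among the DESeq2 calls, Cyp2c29, Cyp2c38 and Cyp2c50 in tumour 1 had passed the filter through that tumour alone. The same held for Cyp2b10 and Cyp4a32 in tumour 10. Nothing is read from the DESeq2 count of tumour 1. Levels are therefore given below as values, and each adjusted p is from the edgeR test.

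**Figure D3:**
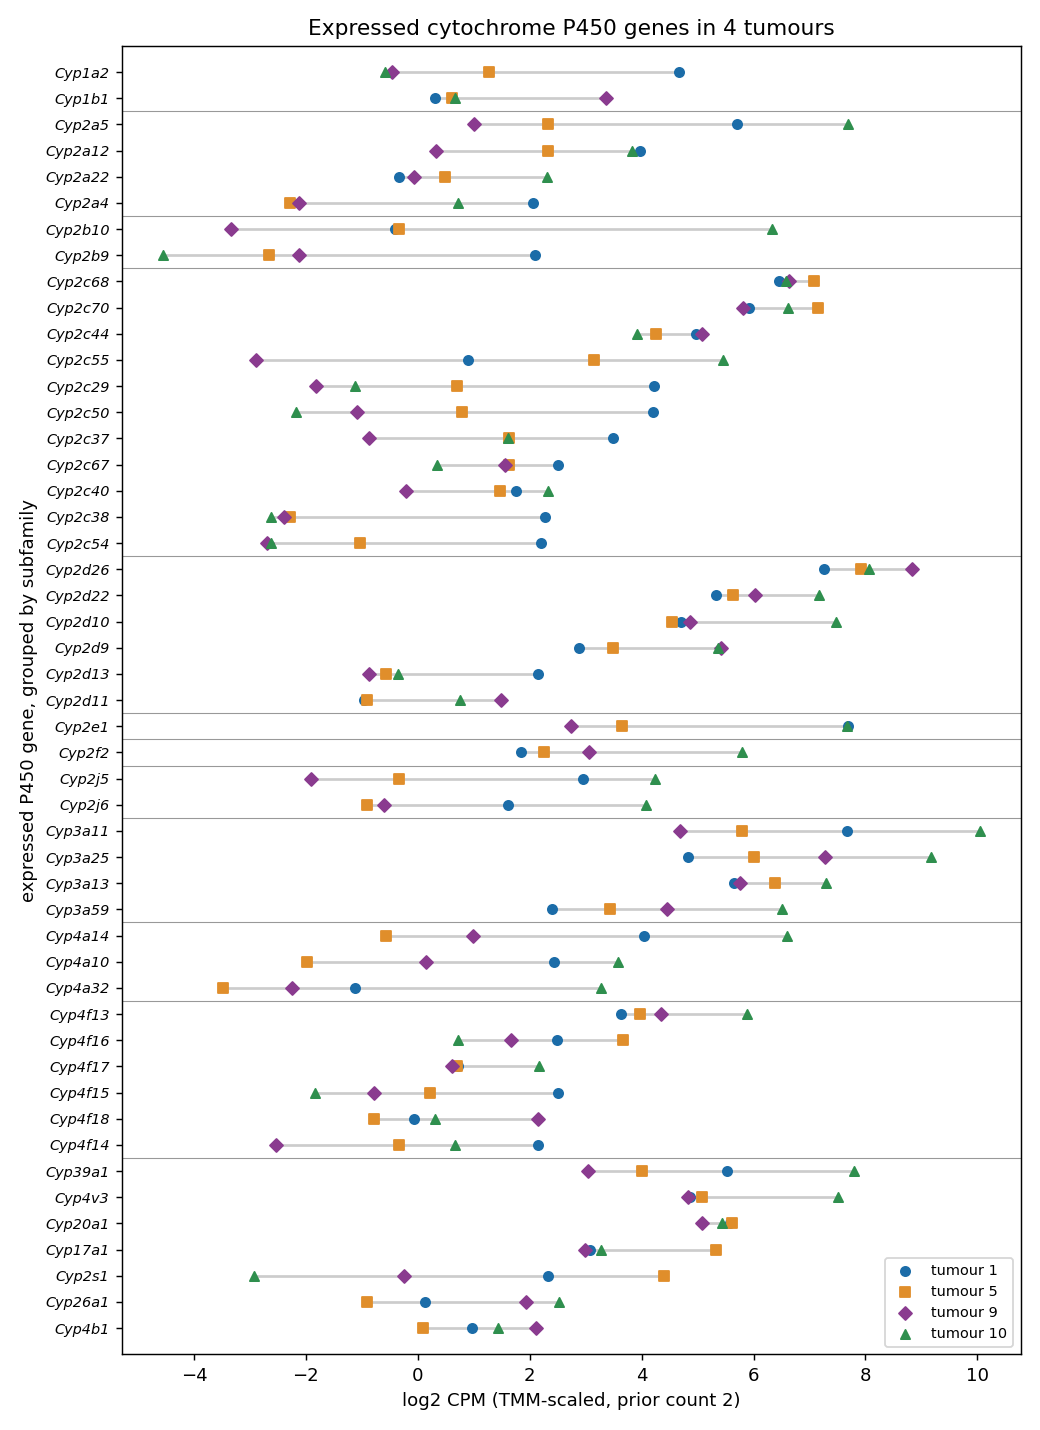
Log2 CPM (horizontal) of the 49 expressed P450 genes in tumours 1, 5, 9 and 10, grouped by subfamily, 1 point per tumour. Points of Cyp2c68 and Cyp20a1 lie together, and those of Cyp2b10, Cyp2c55 and Cyp4a14 have the largest SDs among the members, 4.09, 3.55 and 3.19.

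Family 1 enzymes oxidize planar aromatic compounds and are the classical targets of AHR. Cyp1a2, the caffeine-oxidizing enzyme of central hepatocytes (chromosome 9, 57676937 to 57683703, GRCm38), stood at 25.4, 2.38, 0.689 and 0.624 CPM, 10.7-fold above the next tumour in tumour 1 (log2 fold change 4.36 in tumour 1 against the others, adjusted p = 0.328, edgeR). Cyp1b1, which is expressed mainly outside hepatocytes, stood at 1.19, 1.49, 10.2 and 1.55 CPM, 6.61-fold above the next in tumour 9 (log2 fold change 2.86 in tumour 9 against the others, adjusted p = 0.283, edgeR). Tumour 1 was high for the first and tumour 9 for the second, and Cyp1a1, the most inducible AHR target, was at or under 0.140 CPM everywhere. Ahr itself, chosen for mention after its values were seen, stood at 15.5, 5.16, 4.91 and 72.4 CPM, highest in a tumour where Cyp1a1 had 0 counts (3 counts there are 0.0892 CPM). Tumour 9, where Cyp1b1 was high, also had the highest summed level of markers of stellate cells and fibroblasts (270.0, 189, 297 and 71.4 CPM). Of the 6 markers in that list, however, 3 were highest in tumour 1, 1 in tumour 5 and 2 in tumour 9. The neutrophil sum was also highest in tumour 9, and the part of these cells in the Cyp1b1 level was not tested.

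The 2a subfamily oxidizes steroids, coumarin and nicotine. Cyp2a5, the coumarin hydroxylase (chromosome 7, 26835305 to 26843548), stood at 52.2, 4.95, 1.95 and 207 CPM, a 106-fold range. Cyp2a12, a steroid hydroxylase, stood at 15.6, 4.97, 1.21 and 14.2 CPM, and was lowest in tumour 9 (log2 fold change -3.25 in tumour 9 against the others, adjusted p = 0.539, edgeR). Tumours 1 and 10 were both above tumours 5 and 9 for each, an order that Cyp2a4, a steroid hydroxylase more abundant in females, shared at 4.11, 0.163, 0.186 and 1.61 CPM. Cyp2a22 differed, at 0.751, 1.35, 0.912 and 4.91 CPM. The promoters of Cyp2a4 and Cyp2a5 are 98.4% identical over 249 aligned bases, and 31.0% of the 50-base windows of Cyp2a5 transcripts occur in Cyp2a4, so reads of this pair can be split between them. Even so, the ratio of Cyp2a5 to Cyp2a4 (each per kilobase) was 12.7, 30.3, 10.5 and 129, highest in tumour 10.

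In the 2b subfamily, the 2 expressed genes were high in different tumours, Cyp2b10 in tumour 10 and Cyp2b9 in tumour 1. Each had passed the expression filter through that tumour alone and so had to be high there. Nothing is read from that contrast. Cyp2b10 is the standard target of CAR and of phenobarbital, and Cyp2b9 is a close relative that is more abundant in female liver. Their promoters are shown because these related genes differed in this way; each line gives the 150 bases upstream of the RefSeq start in GRCm38.p6, 5′ to 3′ on the gene's own strand, at chr7:26173259-26173408 (plus strand) for Cyp2b9 and chr7:25897508-25897657 (plus strand) for Cyp2b10. Capitals mark the nuclear receptor hexamer AGGTCA.
Cyp2b9: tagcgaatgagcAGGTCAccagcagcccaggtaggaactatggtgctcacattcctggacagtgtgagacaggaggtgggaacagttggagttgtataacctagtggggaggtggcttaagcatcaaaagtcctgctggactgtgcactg
Cyp2b10: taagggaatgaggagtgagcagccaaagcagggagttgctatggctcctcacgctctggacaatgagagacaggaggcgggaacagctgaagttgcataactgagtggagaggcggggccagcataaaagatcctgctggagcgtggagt
Over 240 aligned bases the pair is 74.6% identical. AGGTCA, searched on both strands, was found in Cyp2b9 at 138 to 133 bases upstream of the start and not in the window of Cyp2b10, and is held by 23.9% of 71 member promoters and 13.8% of 27025 promoters. These shares use a longer window, the 250 bases before the start. A match is only a match of letters, and the known phenobarbital enhancer of Cyp2b10 lies outside these windows.

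Cyp2b10 stood at 0.716, 0.747, 0.0558 and 80.5 CPM, from 41, 32, 3 and 2707 counts. It was 108-fold above the next tumour in tumour 10 (log2 fold change 7.31 in tumour 10 against the others, adjusted p = 0.218, edgeR), and had the largest SD of log2 CPM among the members, 4.09. Cyp2b9 stood at 4.21, 0.117, 0.186 and 0 CPM, at least 47.2-fold higher in tumour 1 than in tumour 10 with the floor at 3 counts per library (log2 fold change 5.29 in tumour 1 against the others, adjusted p = 0.464, edgeR). Cyp2b13, whose promoter is 99.2% identical to that of Cyp2b9 over 250 bases, was below the expression filter with 1.52, 0.537, 0.856 and 0.208 CPM, also highest in tumour 1 and lowest in tumour 10. The remaining members, Cyp2b19 and Cyp2b23, were at or near 0.

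Subfamily 2c, which oxidizes drugs and arachidonic acid, had the most even sum, at 249, 320.0, 195 and 265 CPM, a 1.64-fold range. Within it were steady and highly variable members. The promoters of the steady Cyp2c68, of Cyp2c70 with a 2.54-fold range and of the variable Cyp2c55 are shown to set them side by side, 150 bases upstream of the RefSeq start at chr19:39741102-39741251 (minus strand), chr19:40187287-40187436 (minus strand) and chr19:39006869-39007018 (plus strand). Capitals mark matches on either strand. The motifs were CAAAGTCCA, which is the sequence of an HNF4 site, and the hexamer AGGTCA named above. Also searched were TATAAA as the TATA box, the box named CCAAT and, for AHR, the core TNGCGTG.
Cyp2c68: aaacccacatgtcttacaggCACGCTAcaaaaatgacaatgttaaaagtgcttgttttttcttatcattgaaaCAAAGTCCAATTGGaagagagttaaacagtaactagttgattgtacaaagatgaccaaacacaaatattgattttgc
Cyp2c70: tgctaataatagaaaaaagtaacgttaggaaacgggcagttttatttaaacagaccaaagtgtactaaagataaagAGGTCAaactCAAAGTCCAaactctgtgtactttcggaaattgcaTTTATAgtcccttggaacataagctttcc
Cyp2c55: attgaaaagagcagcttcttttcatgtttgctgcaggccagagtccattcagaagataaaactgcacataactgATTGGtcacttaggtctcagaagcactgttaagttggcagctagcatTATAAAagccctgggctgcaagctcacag
CAAAGTCCA was found 77 to 69 bases upstream of the start in Cyp2c68 and 64 to 56 bases upstream in Cyp2c70, and not in the window of Cyp2c55. TATAAA was found 29 to 24 bases upstream in Cyp2c55 on the gene's own strand, and at the same place in Cyp2c70 on the opposite strand. In Cyp2c68 the CAAAGTCCA match overlaps a CCAAT match by 3 bases. CAAAGTCCA was held by 8 of 71 member promoters (11.3%) against 0.377% of all promoters; the 8 were Cyp2c40, Cyp2c65, Cyp2c67, Cyp2c68, Cyp2c69, Cyp2c70, Cyp3a11 and Cyp3a16, some of them near-copies of each other. TATAAA was held by 35.2% of member promoters against 13.0%, CCAAT by 40.8% against 34.5%, the HNF1 motif GTTAAT by 11.3% against 6.54%, TNGCGTG by 1.41% against 4.19% and the C/EBP motif TTGCGCAA by 0 against 0.17%.

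Cyp2c68 (chromosome 19, 39688834 to 39741054) stood at 87.7, 136, 99.5 and 96.0 CPM, a 1.55-fold range, and 43.3% of its transcript windows occur in other genes. Cyp2c70, which makes the muricholic acids of mouse bile, stood at 60.1, 142, 56.0 and 98.3 CPM with no shared window. Both were highest in tumour 5. Cyp2c44, an arachidonic acid epoxygenase, stood at 31.4, 19.2, 33.7 and 15.1 CPM, highest in tumour 9 and lowest in tumour 10.
Cyp2c55, inducible through CAR and PXR, stood at 1.82, 8.78, 0.0931 and 43.6 CPM, a 469-fold range, highest in tumour 10 and lowest in tumour 9 (log2 fold change -7.56 in tumour 9 against the others, adjusted p = 0.656, edgeR). Another order was seen in Cyp2c29, a CAR target of central hepatocytes, at 18.7, 1.59, 0.242 and 0.416 CPM (log2 fold change 4.64 in tumour 1 against the others, adjusted p = 0.400, edgeR). Tumour 1 was at least 10-fold above each other tumour for Cyp2c29, Cyp2c50 (18.3, 1.68, 0.428 and 0.178 CPM), Cyp2c38 (4.79, 0.163, 0.149 and 0.119 CPM) and Cyp2c54 (4.54, 0.444, 0.112 and 0.119 CPM). Cyp2c37, at 11.2, 3.04, 0.503 and 3.003 CPM, and Cyp2c67, at 5.64, 3.06, 2.90 and 1.22 CPM, were also highest in tumour 1. Cyp2c40 was highest in tumour 10, at 3.36, 2.73, 0.819 and 4.995 CPM, with 72.1% of its windows shared. The ratio of Cyp2c55 to Cyp2c29 per kilobase was 0.0874, 4.97, 0.345 and 94.1. Thus 6 of 11 expressed 2c genes were highest in tumour 1, 2 in tumour 5, 1 in tumour 9 and 2 in tumour 10. The shares of all expressed genes were 21.4%, 21.2%, 21.6% and 35.8%. Cyp2c29, Cyp2c50, Cyp2c38 and Cyp2c54 had passed the expression filter through tumour 1 alone, so nothing is read from the count of tumour 1.

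The 2d subfamily, kin of the human drug-metabolizing CYP2D6, was lowest in tumour 1 in sum, at 232, 329, 594 and 632 CPM. Cyp2d26 (chromosome 15, 82790101 to 82794294) had the highest mean level per kilobase of all members, 170 CPM per kilobase, and stood at 154, 242, 454 and 268 CPM. Cyp2d22 stood at 39.9, 49.7, 64.8 and 143 CPM. Cyp2d10 stood at 25.9, 23.3, 29.2 and 177 CPM, level in 3 tumours and 6.07-fold above the next in tumour 10 (log2 fold change 2.76 in tumour 10 against the others, adjusted p = 0.0906, edgeR), the smallest adjusted p among members. Cyp2d10 shares 39.8% of its windows with other genes, most with Cyp2d11, which was low at 0.472, 0.490, 2.77 and 1.64 CPM. Cyp2d9, a testosterone hydroxylase more abundant in males, stood at 7.30, 11.2, 42.8 and 41.1 CPM, high in tumours 9 and 10. Cyp2d13, a non-coding row, was the sole expressed 2d gene highest in tumour 1, at 4.37, 0.630, 0.503 and 0.743 CPM.

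Cyp2e1 and Cyp2f2 are markers of the central and the portal zone. Cyp2e1 (chromosome 7, 140763739 to 140774987), which oxidizes ethanol and paracetamol, stood at 205, 12.4, 6.66 and 203 CPM. Tumours 1 and 10 were level with each other and over 16-fold above the other tumours, with an adjusted p of 0.985 in edgeR for tumour 1 and for tumour 10; the test sets 1 tumour against the rest and so does not compare pairs. Cyp2f2 (chromosome 7, 27119909 to 27133660), known for naphthalene oxidation and for club cells of the lung, stood at 3.53, 4.76, 8.32 and 55.1 CPM, 6.62-fold above the next in tumour 10 (log2 fold change 3.31 in tumour 10 against the others, adjusted p = 0.195, edgeR). Lung epithelium markers were near 0, at 0.157, 0.210, 0.149 and 0.0297 summed CPM.

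Of 8 listed central-zone P450 genes, 6 were highest in tumour 1 and 2 in tumour 10, against 21.4% and 35.8% of all expressed genes. All 8 spanned at least 4-fold, against 19.6% of all expressed genes. Cyp2c29, Cyp2c50 and Cyp2c54 had passed the expression filter through tumour 1 alone and so had to be high there. Their summed level was 538, 82.1, 36.4 and 1468 CPM, and in tumour 10 Cyp3a11 alone gave 1053 of it. Other central-zone markers were summed at 430, 205, 350 and 150 CPM. Among them Glul, glutamine synthetase, stood at 291, 161, 247 and 104 CPM. Portal-zone markers were summed at 2105, 2329, 2920 and 12590 CPM. Tumour 10 had the highest portal sum and the lowest non-P450 central sum, yet a Cyp2e1 level close to that of tumour 1. Ass1 alone, whose reads can be shared with near-identical copies, gave 6824 CPM of the portal sum in tumour 10. Of 8 portal markers 7 were highest in tumour 10 (35.8% of all expressed genes), but Cdh1 was lowest there. Of 6 expressed non-P450 central markers 4 were lowest in tumour 10 (32.4% of all expressed genes). Oat was lowest in tumour 5 and Tbx3 in tumour 9. The ratio of Cyp2e1 to Cyp1a2 per kilobase was 8.80, 5.69, 10.5 and 355. The part of zonal make-up in these levels was not tested.

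The 2j subfamily makes epoxides of arachidonic acid. Cyp2j5 stood at 7.67, 0.747, 0.223 and 18.9 CPM and Cyp2j6 at 3.02, 0.490, 0.614 and 16.9 CPM. Both were highest in tumour 10 and next in tumour 1, as was Cyp2j9 below the filter, at 0.297, 0.0934, 0.112 and 2.80 CPM. Cyp2j11, Cyp2j12 and Cyp2j13 had no count.

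Subfamily 3a, which oxidizes a large share of drugs and is induced through PXR, was the most abundant in tumour 10 at 288, 217, 258 and 1877 CPM in sum. The promoter of Cyp3a11 is shown as that of the most abundant member of tumour 10, 150 bases upstream of the RefSeq start at chr5:145879855-145880004 (minus strand), with CAAAGTCCA in capitals, starting 109 bases upstream.
Cyp3a11: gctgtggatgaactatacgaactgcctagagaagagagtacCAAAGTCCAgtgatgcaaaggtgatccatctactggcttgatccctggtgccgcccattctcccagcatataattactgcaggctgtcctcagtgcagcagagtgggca
Cyp3a11 stood at 203, 55.5, 25.8 and 1053 CPM (log2 fold change 3.47 in tumour 10 against the others, adjusted p = 0.533, edgeR). Cyp3a25 stood at 28.5, 64.2, 155 and 575 CPM, lowest in tumour 1 (log2 fold change 2.80 in tumour 10 against the others, adjusted p = 0.532, edgeR). Cyp3a13, which is also an intestinal member, stood at 50.5, 83.6, 54.1 and 157 CPM. All 4 expressed 3a genes were highest in tumour 10 (35.8% of all expressed genes were), while tumours 1, 5 and 9 differed in order. The ratio of Cyp3a11 to Cyp3a25 per kilobase was 6.95, 0.844, 0.163 and 1.79, so that Cyp3a11 exceeded Cyp3a25 in tumours 1 and 10 only. Cyp3a59, at 5.22, 10.8, 21.8 and 90.7 CPM, followed Cyp3a25 closely, with a ratio of Cyp3a25 to Cyp3a59 per kilobase of 5.44, 5.95, 7.08 and 6.32. Their promoters are 95.6% identical over 249 bases, and 24.7% of the Cyp3a59 windows occur in Cyp3a25, so some of their reads can be shared. Cyp3a44, more abundant in females, was below the filter and highest in tumour 5, at 0.402, 2.38, 0.149 and 0.714 CPM.

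**Figure D4:**
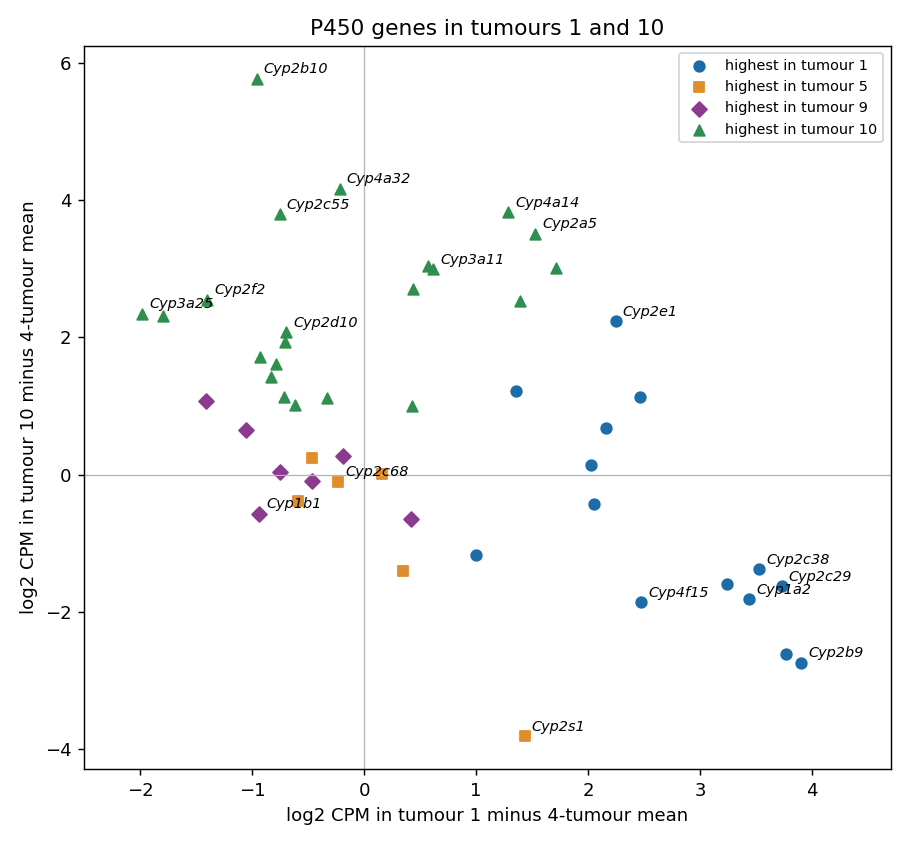
Deviation of log2 CPM from the gene's 4-tumour mean in tumour 10 (vertical) against tumour 1 (horizontal) for 49 expressed P450 genes, coloured by the tumour with the highest level. Genes highest in tumour 10 fill the upper part, Cyp2b9, Cyp2c29 and Cyp1a2 sit at the lower right, and Cyp2e1 is high in both.

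The 4a subfamily hydroxylates the end carbon of fatty acids and is the standard readout of PPARA. Cyp4a14 (chromosome 4, 115486200 to 115496142) stood at 16.5, 0.630, 1.94 and 96.4 CPM, a 153-fold range. Cyp4a10 stood at 5.36, 0.210, 1.06 and 11.9 CPM. Cyp4a32 stood at 0.419, 0.0467, 0.168 and 9.60 CPM, 22.9-fold above the next in tumour 10 (log2 fold change 5.47 in tumour 10 against the others, adjusted p = 0.269, edgeR), with 46.8% of its windows shared, mostly with Cyp4a10. All 3 shared 1 order of tumours, 10, 1, 9 and 5, and in sum the subfamily spanned 94.5-fold, at 23.0, 1.26, 3.48 and 119 CPM. Ppara itself stood at 80.3, 93.6, 99.7 and 120 CPM.

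The 4f subfamily hydroxylates leukotrienes and long fatty acids, and its members did not share a pattern. Cyp4f13 stood at 12.3, 15.6, 20.4 and 59.2 CPM (log2 fold change 1.88 in tumour 10 against the others, adjusted p = 0.243, edgeR) and Cyp4f17 at 1.61, 1.59, 1.49 and 4.46 CPM. Cyp4f16 stood at 5.54, 12.6, 3.13 and 1.61 CPM, highest in tumour 5. Highest in tumour 1 were Cyp4f14, at 4.39, 0.747, 0.130 and 1.55 CPM, and Cyp4f15, at 5.63, 1.12, 0.540 and 0.238 CPM. Cyp4f18, which breaks down leukotriene B4 in neutrophils, stood at 0.909, 0.537, 4.39 and 1.19 CPM, highest in tumour 9 (log2 fold change 2.32 in tumour 9 against the others, adjusted p = 0.526, edgeR). All 6 listed neutrophil markers were highest in tumour 9 too, and their part in the Cyp4f18 level was not tested.

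Among the members of other subfamilies, Cyp4v3 and Cyp39a1 were highest in tumour 10. Cyp4v3, a fatty acid hydroxylase, stood at 29.0, 33.8, 28.5 and 181 CPM, level in 3 tumours and 5.38-fold above the next in tumour 10 (log2 fold change 2.58 in tumour 10 against the others, adjusted p = 0.100, edgeR). Cyp39a1, an oxysterol hydroxylase of a side route of bile acid synthesis, stood at 46.0, 16.1, 8.17 and 223 CPM (log2 fold change 3.25 in tumour 10 against the others, adjusted p = 0.465, edgeR). Cyp17a1, the steroid hydroxylase and lyase of sex hormone synthesis, stood at 8.42, 40.0, 7.89 and 9.66 CPM, 4.14-fold above the next in tumour 5 (log2 fold change 2.21 in tumour 5 against the others, adjusted p = 0.279, edgeR).
It was the sole expressed gene of 6 listed steroidogenic members: Cyp11b1 and Cyp19a1 had no count, and Cyp11a1, Cyp11b2 and Cyp21a1 did not reach 0.5 CPM. Cyp2s1, a member of epithelia outside the liver, stood at 4.96, 21.2, 0.8003 and 0.0892 CPM, highest in tumour 5 and lowest in tumour 10. The summed bile duct markers ran in the same order of tumours, 5, 1, 9 and 10, and their part in Cyp2s1 was not tested.
Cyp26a1, which breaks down retinoic acid, stood at 1.05, 0.490, 3.76 and 5.71 CPM, and Cyp4b1 at 1.90, 1.03, 4.30 and 2.65 CPM. Cyp20a1 stood at 48.0, 49.0, 33.8 and 43.2 CPM, with tumour 5 highest under TMM scaling and tumour 1 under total counts, the sole expressed member whose highest tumour differed between these scalings. None of the 3 vitamin D genes was expressed; Cyp2r1, a vitamin D hydroxylase, reached 2.02 CPM in tumour 10.

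Of 12 listed female-biased members, 6 were expressed and the other 6 were below the filter. Cyp2a4 and Cyp2b9 were highest in tumour 1, Cyp17a1 in tumour 5, and Cyp2b10, Cyp2c40 and Cyp4a14 in tumour 10. The shares of all expressed genes highest in tumours 1, 5 and 10 were 21.4%, 21.2% and 35.8%. Cyp2a4 and Cyp2b9 had passed the filter through tumour 1 alone, and Cyp2b10 through tumour 10 alone. These had to be high there, so nothing is read from their difference in tumour. Among 3 male-biased genes, Cyp4a12a and Cyp4a12b, which fall outside the symbol rule, were at or under 0.187 CPM, and Cyp2d9 was expressed. Xist, the RNA of the inactive X chromosome, stood at 1.21, 1022, 843 and 1399 CPM, and the Y-linked Ddx3y, Eif2s3y, Kdm5d and Uty had 0 counts in all 4 tumours. Tumour 1 thus stood apart in Xist, and its part in the female-biased values was not tested.

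Transcripts of the electron donors and partners of P450 enzymes were highest in tumour 10. All 7 listed genes of this kind had their highest level there (35.8% of all expressed genes did), under TMM and total-count scaling alike. In the edgeR test of that tumour, 6 had an unadjusted p under 0.05 (13.9% of all genes, in the same direction), although 0 passed adjustment. Por stood at 195, 259, 284 and 828 CPM (log2 fold change 1.75 in tumour 10 against the others, adjusted p = 0.202, edgeR). Cyb5r3, the cytochrome b5 reductase, stood at 227, 320, 276 and 513 CPM, and Fdxr, which feeds mitochondrial P450 enzymes, at 34.2, 37.1, 62.7 and 136 CPM. Por in tumour 10 was 2.91-fold above the next tumour.
Of 10 heme genes, 8 were highest in tumour 10 and 2 in tumour 9 under TMM scaling, beside 35.8% and 21.6% of all expressed genes. Under total counts the numbers were 4 and 6, beside 2633 and 3896 of 13146 genes expressed under that scaling. Alas1, the rate-limiting enzyme of heme synthesis in liver, stood at 60.1, 69.1, 49.3 and 635 CPM (log2 fold change 3.42 in tumour 10 against the others, adjusted p = 0.0876, edgeR), and Alad, the next enzyme, at 76.5, 86.3, 63.8 and 204 CPM. Cpox, a later step, stood at 167, 174, 175 and 218 CPM, and Hmox1, which breaks heme down, was highest in tumour 9 at 96.0 CPM.

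**Figure D5:**
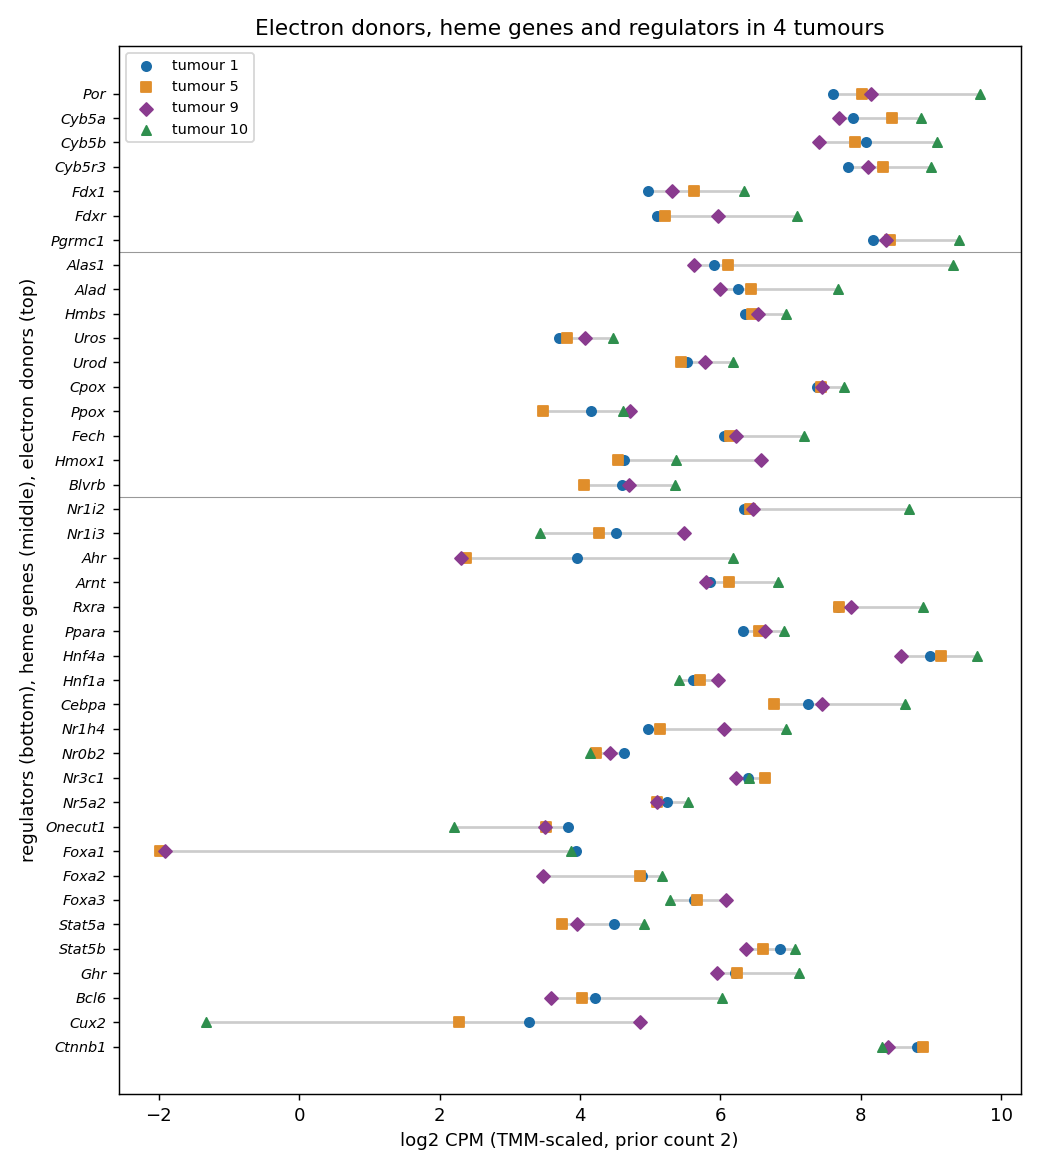
Log2 CPM (horizontal) of electron donors, heme genes and regulators of P450 genes, 1 point per tumour. Tumour 10 is the rightmost point for Por, Alas1 and Nr1i2, and the leftmost for Nr1i3 and Cux2.

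Of 25 regulators 23 were expressed. Under TMM, 3, 2, 4 and 14 of them were highest in tumours 1, 5, 9 and 10. Of 13129 expressed genes, 2805, 2787, 2834 and 4703 were. Under total counts the numbers were 8, 1, 5 and 9, beside 3893, 2724, 3896 and 2633 of 13146 genes expressed under that scaling. Hnf4a, the main hepatocyte nuclear receptor, stood at 508, 567, 382 and 809 CPM. Rxra, the partner of PXR, CAR and PPARA, stood at 206, 207, 234 and 475 CPM (log2 fold change 1.14 in tumour 10 against the others, adjusted p = 0.279, edgeR). Ctnnb1, the beta-catenin gene, stood at 449, 475, 336 and 315 CPM, and Foxa1, a liver pioneer factor with the largest SD of log2 CPM of the list (3.38), at 15.3, 0.210, 0.223 and 14.6 CPM. Foxa1, like Cyp2e1, was high in tumours 1 and 10 and low in the other tumours.
The receptors named next were chosen after their values were seen. Nr1i2, which encodes PXR, stood at 81.1, 85.7, 88.1 and 411 CPM (log2 fold change 2.27 in tumour 10 against the others, adjusted p = 0.104, edgeR), while Nr1i3, which encodes CAR, was lowest in tumour 10 at 22.8, 19.3, 44.5 and 10.7 CPM. The tumour with the highest Cyp2b10 therefore had the lowest Nr1i3. Cux2, a female-biased repressor of male genes, stood at 9.65, 4.81, 28.9 and 0.357 CPM, and Bcl6, a male-biased repressor of female genes, at 18.5, 16.3, 12.0 and 65.3 CPM.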

How the data were processed

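Poly-A RNA of 4 tumours was extracted with Trizol, treated with DNase and made into TruSeq libraries, per the labels' protocols. The submitters' processing notes name FastQC 0.11.8 and GRCm38. The aligner, counter and strand setting were not given in the sources used here. The authors' deposited counts are whole reads on 33984 RefSeq transcript rows. The deposited FPKM and TPM columns, so named per the file headers, served only to check units and recover transcript lengths, whole within 0.01 bases for 100% of rows with counts.

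Each symbol was read from its row of highest mean count. Reads can be counted on more than 1 isoform or near-copy: of 47 expressed members matched to GENCODE M21 transcripts, 18 share over 25% of their 50-base windows with other genes and 10 share none. TMM factors from edgeR 4.0.16 (R 4.3.3) were 1.102, 1.031, 1.098 and 0.8017. Relative to TMM, which all values use, scaling by totals shifts the median gene by 0.14, 0.04, 0.13 and -0.32 (log2). Log2 CPM adds a prior count of 2, and 3 counts equal 0.0524 to 0.0892 CPM. Expressed means a mean of at least 1 CPM. Counting noise was tested by a Poisson chi-square test, and each tumour against the other 3 by edgeR's robust quasi-likelihood test, whose lone tumour is assumed to vary like the rest; both used Benjamini-Hochberg adjustment at 0.05. Scripts were tested on simulated data. Alternatives were DESeq2 1.42.0, limma 3.58.1 (voom), other scalings, filters, folds, prior counts, rows and left-out tumours.

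Members and lists were chosen with earlier results of these data known. Members with 1 CPM in at least 1 tumour could be named. The 3 of highest mean CPM and the 1 of largest SD in each subfamily are given in full. The same rule was set for the gene lists, but only some of the genes it picks there are named. Pgrmc1, Tdo2, Oat, Slc1a2 and Gulo are among those left out, and marker lists are mostly given as sums. Other named genes, among them Cyp1a1, Ppara and Hmox1, were chosen after their values were seen. Coordinates are from GENCODE M21 (GRCm38), for 88 of 90 members, and promoters from RefSeq (GRCm38.p6), for 71. The planned protein comparison was not run, and the shared windows were given in its place.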

Additional observations from a re-analysis of the deposited data

Results flagged for a closer look

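Of 107 values examined (49 members, 45 list genes and 13 sums), 17 had 1 tumour standing far from the other 3, with a gap to the nearest tumour that, as a part of the whole range, was above Dixon's critical value. Chance flags about 1 in 20 groups. Of the 49 members 6 were such genes, beside 919 of 13129 expressed genes. Among members, tumour 10 stood high for Cyp2d10 (7.47 log2 CPM), Cyp4v3 (7.50) and Cyp4f17 (2.17), tumour 9 for Cyp1b1 (3.36), tumour 1 for Cyp2c38 (2.27) and tumour 5 for Cyp17a1 (5.32).

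Among sums, tumour 10 stood high for the 3a subfamily (10.87 as log2 of the summed CPM), the 4f subfamily (6.10) and the 90 members (11.98). Among other genes, tumour 10 stood high for Alas1 (9.31 log2 CPM), Rxra (8.89), Ass1 of the urea cycle (12.74) and Hsd17b13 (9.96). Tumour 9 stood high for the macrophage gene Cd5l (8.75 log2 CPM), the neutrophil gene Ngp (6.85), and the red cell genes Hba-a1 (8.00) and Alas2 (5.24). Ass1 and Hba-a1 can share reads with near-identical copies and are uncertain.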

How the results depend on the processing

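With at least 1 CPM in every tumour, 25 members were expressed and 25 lay beyond counting noise (49 and 49 as reported), 17 spanned 4-fold, and 3 and 12 were highest in tumours 1 and 10 (21.4% and 37.2% of genes filtered alike), which puts tumour 1 below its background instead of above it. With no filter, 80 were expressed, and 12 and 16 were highest in tumours 5 and 9, against 20.9% and 27.3% of 19162 genes. In that setting 2 were called in tumour 10, beside 121 of the 19162 genes (0.631%). DESeq2 called 4, 3, 7 and 11 members in tumours 1, 5, 9 and 10, and adjustment within each tumour called 2 in tumour 10. Some of the DESeq2 calls in tumours 1 and 10 were of members that had passed the filter through that tumour alone. The cause of the differences between tools was not tested. The smaller set of genes under the strict filter is its own construction.

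Leaving out 1 tumour at a time gave 41 to 50 expressed members, 41 to 50 beyond noise and 29 to 39 spanning 4-fold. Of 12867 to 13195 expressed genes in these runs, 12284 to 12694 lay beyond noise and 1377 to 2244 spanned 4-fold. Members highest in tumours 1, 5, 9 and 10 then numbered 15 to 24, 7 to 11, 7 to 14 and 24 to 27. For tumours 1, 5 and 9 the upper value was that without tumour 10. Over all expressed genes the numbers were 3934 to 4359, 3461 to 4530, 3447 to 4721 and 5096 to 5472. Calls in tumour 10 ranged from 0 to 4, with 4 without tumour 9, beside 410 of 12867 genes. The summed CPM of tumour 10 was 2165 without the 3a subfamily, and under total counts the 4 sums were 1422, 1133, 1322 and 3239; the sums under other settings were chosen after seeing the data. No paired analysis was possible because there is only 1 group. With 4 libraries, the tests of 1 tumour against 3 have low power, and members under 1 CPM rest on few counts.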
